A study of Homo sapiens with 7 samples.

Results

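The genes described here encode group IV (cytosolic) phospholipases A2 and the enzymes that turn their product into prostaglandins, in RH30 cells treated with the Smac mimetic BV6. They are PLA2G4A, PLA2G4C, the antisense RNA PLA2G4C-AS1, PTGS1, PTGS2, PTGES, PTGES2, PTGES3 and PTGDS, 9 of the 57189 genes in the count table, taken by their symbols. RH30, a long-established line, derives from alveolar rhabdomyosarcoma (RMS), a tumor with features of skeletal muscle, and BV6 acts like Smac, a protein released from mitochondria that antagonizes inhibitor of apoptosis proteins. Poly(A)-selected RNA was sequenced from 4 untreated samples and from 3 samples exposed to 5 µM BV6 for 24 h. All samples are of 1 cell line labelled wild type, and the untreated samples are given no vehicle in the labels. The paper's methods state that its RH30 cells expressed GFP and luciferase throughout the study, whereas the sample titles name the line only as RH30. The sample titles carry a code that BV6 replicates 2, 3 and 4 share with the untreated replicates of those numbers, while untreated replicate 1 stands alone. The labels do not say what the code means, and samples with the same code are called an experiment here by assumption. The genes were chosen with the difference between BV6 and untreated samples already known, in which PLA2G4C and PLA2G4C-AS1 stood out, so that difference is given for these 9 genes as a description without a p-value.

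Cytosolic phospholipases A2 cut fatty acids, arachidonic acid among them, from membrane phospholipids. The cyclooxygenases encoded by PTGS1 and PTGS2 convert free arachidonic acid to prostaglandin H2, and terminal synthases make prostaglandins E2, D2 and others from it. PTGS1 is known as the constitutive and PTGS2 as the inducible cyclooxygenase, and PTGS2 is a well-known target gene of NF-κB, the pathway that Smac mimetics activate. In muscle, prostaglandins are known to act on myoblast growth and fusion.

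The libraries held between 54070030 and 77220882 counts, and 3 counts, the smallest number taken as detected, equalled 0.0389 to 0.0557 CPM (counts scaled to a common library size after TMM normalization). This floor covers counting error only. The totals exceed the reads per library that the study's methods give, so each mate of a read pair may have been counted, and 3 counts may then stand for fewer than 3 fragments. Of 10 markers of muscle and alveolar RMS, all were detected, with MYOD1 at 344 ± 86.9 CPM (SD, n = 4) and DES at 768 ± 114 CPM in untreated cells. Their summed level was 1287 to 1877 CPM in untreated and 908 to 1621 CPM in BV6 samples, 8 of the 10 were lower with BV6, and none passed an adjusted p of 0.05 by edgeR (1 at an unadjusted p below 0.05). Of 10 leukocyte markers, 8 had enough counts to be tested. Their summed level was 42.6 to 58.2 CPM in untreated and 24.2 to 46.7 CPM in BV6 samples, most of it from ITGB2 (36.8 CPM in untreated samples) and NKG7 (9.79 CPM), with PTPRC at 0.378 CPM. Of 5 platelet markers 2 were tested, their sum was 1.50 to 3.10 CPM in untreated and 2.19 to 2.88 CPM in BV6 samples, and PF4 had 0 counts in every library. Of 7 fibroblast and endothelial markers, 5 were tested, with a sum of 218 to 320 CPM in untreated and 155 to 287 CPM in BV6 samples. Most of it came from COL3A1 (224 CPM in untreated samples), followed by PECAM1 (59.3 CPM), while VWF had 0.817, CDH5 0.140 and DCN 0.0729 CPM. The part of such cells in the levels below was not tested, and in bulk samples more cells with an RNA cannot be told apart from more of it per cell.

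The 9 genes differed in level by several orders of magnitude in untreated cells. Levels between genes are compared here per length, as CPM per kb of the exon union of GENCODE release 44 (GRCh38). PTGES3, which encodes p23, a co-chaperone of HSP90 also described as a cytosolic prostaglandin E synthase, had 94.8 ± 9.68 CPM per kb (SD, n = 4), above 98.0% of the 17460 tested genes with a known length. PTGES2, the gene of a membrane-associated prostaglandin E synthase, followed with 6.67 ± 1.59 CPM per kb, above the median of the tested genes (3.49 CPM per kb). PTGS1 had 0.774 ± 0.189, PLA2G4C 0.386 ± 0.117 and PLA2G4C-AS1 0.294 ± 0.0178 CPM per kb, all below that median. The libraries of PTGS1 (0.496 to 0.893 CPM per kb) overlapped with those of PLA2G4C (0.312 to 0.560 CPM per kb), and with the longest annotated transcript as the length PLA2G4C (1.02 CPM per kb) came before PTGS1 (0.892 CPM per kb). PTGDS, with 0.0480 ± 0.0154 CPM per kb, was lower, and PLA2G4A, PTGES and PTGS2 were at the floor of detection. With BV6, PLA2G4C (2.80 ± 0.104 CPM per kb, n = 3) lay above 45.4% and PLA2G4C-AS1 (2.42 ± 0.230 CPM per kb) above 42.3% of the tested genes, against 19.3% and 16.9% in untreated cells.

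**Figure D1:**
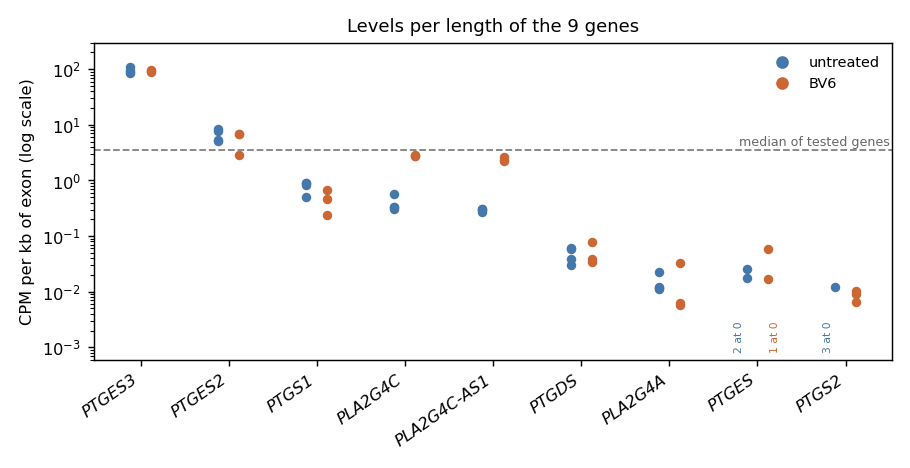
CPM per kb of exon union (log axis) of the 9 genes in the 4 untreated (blue) and 3 BV6 (orange) libraries, 1 point a library, with the number of libraries at 0 written below; the dashed line is the median of the tested genes, 3.49 CPM per kb. PLA2G4C and PLA2G4C-AS1 are the genes whose BV6 points stand clear of the untreated ones, from 0.386 to 2.80 and from 0.294 to 2.42 CPM per kb on average.

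Of the 9 genes, 5 had enough counts for edgeR's quasi-likelihood test across 23124 genes. By that test 2 of the 5, PLA2G4C and PLA2G4C-AS1, were differentially expressed genes (DEGs), defined here by an adjusted p under 0.05 together with a 2-fold or larger difference. Among all tested genes 74 were DEGs (0.32%), or 119 (0.515%) when replicate numbers entered as a block, where the same 2 of the 5 were called. Since the genes were chosen on this contrast, nothing is read from that count. The median log2 fold change of the 5 genes was -0.04, with 2 higher and 3 lower, beside -0.01 over all tested genes.

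PLA2G4C (chromosome 19, 48047843 to 48110817, minus strand) encodes cytosolic phospholipase A2 gamma, the group IV enzyme that lacks the calcium-binding C2 domain of the family and is active without calcium. It had 159, 124, 134 and 229 counts in untreated replicates 1 to 4 and 1002, 1138 and 1035 counts in BV6 replicates 2 to 4. In CPM these were 2.06, 2.21, 2.22 and 3.70 against 17.8, 18.6 and 19.2, so that every BV6 library lay far above every untreated one. Of all tested genes, 8.83% had no overlap between the groups in either direction. The 3 BV6 libraries lay close together, whereas untreated replicate 4 stood above the other 3 untreated libraries. This gave a log2 fold change of 2.86 with a standard error (SE) of 0.215, a 7.27-fold higher level. Within experiments the level was 8.08-fold, 8.35-fold and 5.19-fold higher with BV6 in replicates 2, 3 and 4, and the smallest of these belonged to the experiment with the high untreated library. By size of the log2 fold change PLA2G4C ranked 22nd of the 23124 tested genes, counted from the highest. Without each of the 7 libraries in turn, the log2 fold change lay between 2.77 and 3.10.

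**Figure D2:**
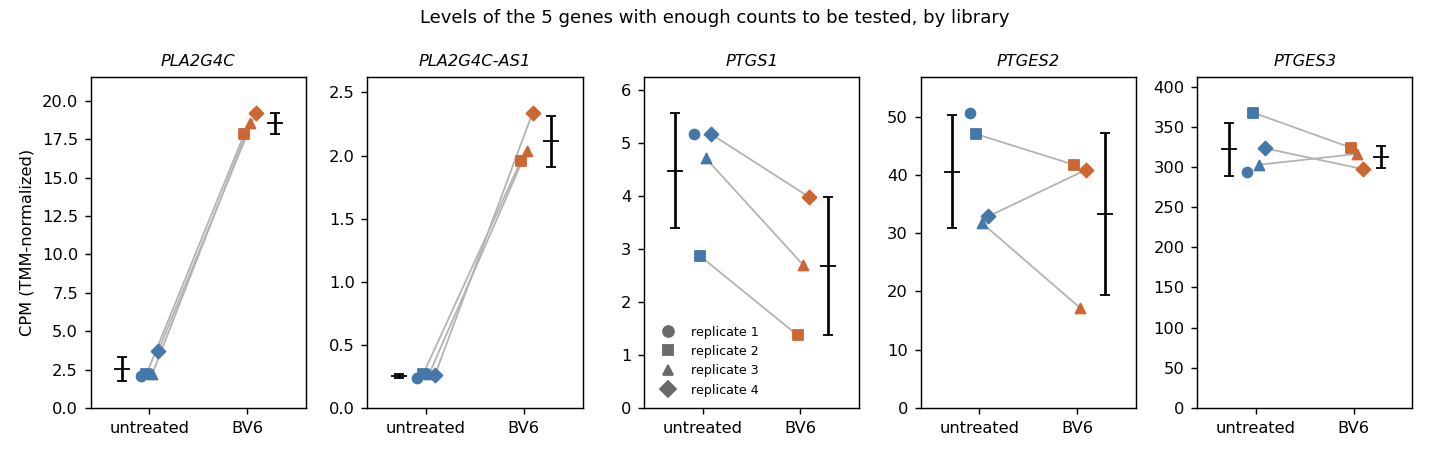
CPM of the 5 tested genes in untreated (blue) and BV6 (orange) libraries on linear axes that start at 0; symbols mark the replicate number, gray lines join libraries of 1 experiment, and black bars show mean and SD (n = 4 and n = 3). PLA2G4C and PLA2G4C-AS1 lie without overlap between groups, PTGS1 is lower with BV6 in each of the 3 experiments although the groups overlap, and PTGES2 and PTGES3 overlap.

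PLA2G4C-AS1 (chromosome 19, 48061371 to 48064945, plus strand) is a long non-coding RNA that lies inside the body of PLA2G4C on the opposite strand. It had 18, 15, 16 and 16 counts in untreated replicates 1 to 4 and 110, 125 and 126 counts in BV6 replicates 2 to 4. The untreated libraries were almost alike, at 0.234 to 0.267 CPM, and the BV6 libraries lay at 1.96 to 2.34 CPM, without overlap, as in 8.83% of all tested genes. The log2 fold change was 3.04 (SE 0.221), an 8.20-fold higher level that ranked 17th of the tested genes. Within experiments it was 7.33-fold, 7.68-fold and 9.05-fold higher in replicates 2, 3 and 4.

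The counts of PLA2G4C and PLA2G4C-AS1 stood in nearly the same ratio in 6 of the 7 libraries. PLA2G4C-AS1 had 11.3%, 12.1%, 11.9% and 6.99% of the counts of PLA2G4C in untreated replicates 1 to 4 and 11.0%, 11.0% and 12.2% in BV6 replicates 2 to 4. The mean was 10.6% ± 2.42 (SD, n = 4) without and 11.4% ± 0.689 (SD, n = 3) with BV6, and untreated replicate 4, where PLA2G4C had its high count, was the low one. The genes share 326 exonic bases, which are 37.3% of the exons of PLA2G4C-AS1 and 4.93% of those of PLA2G4C. Against the length of the longest PLA2G4C transcript they are 13.1%, but whether they all lie in that transcript was not checked. The libraries were made with a kit that keeps strand, but whether the counting used strand is not given in the sources used here. As a check, 34 genes were found that have at least 95% of their exonic bases inside exons of a gene of at least 20 CPM on the opposite strand. Their level per kb was 61.3% of that of the covering gene at the median (quartiles 15.0% and 156%), and over 50% in 20 of the 34. PLA2G4C-AS1 shares only 37.3% of its exons, and PLA2G4C had 2.55 CPM in untreated cells. The pair met neither limit of this check, so how its reads were counted cannot be read from it. Reads of PLA2G4C and of PLA2G4C-AS1 cannot be told apart in these counts, and how many of the PLA2G4C-AS1 counts came from PLA2G4C was not tested. With both genes summed into 1, the log2 fold change was 2.88.

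**Figure D3:**
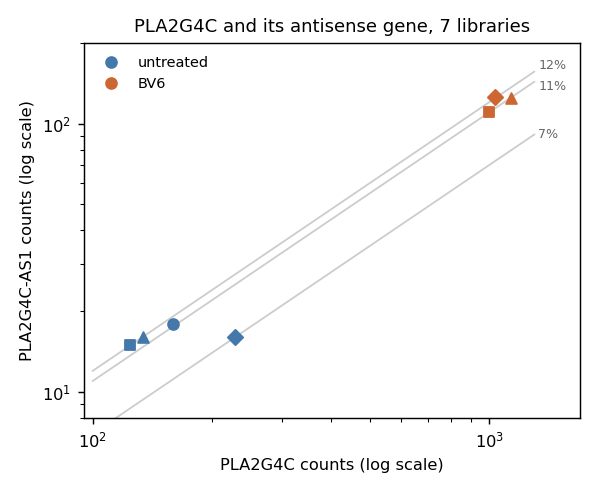
Counts of PLA2G4C-AS1 against counts of PLA2G4C, both on log axes, for 4 untreated (blue) and 3 BV6 (orange) libraries, with symbols by replicate as circle, square, triangle and diamond for 1 to 4 and gray lines at fixed percentages. Of the 7 libraries, 6 lie between 11.0% and 12.2%, and untreated replicate 4 lies at 6.99%.

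The other genes around PLA2G4C were compared because position played no part in the choice of genes. Only genes whose symbols matched GENCODE release 44 could be placed, 36327 of the 57189 in the table and 17460 of the 23124 tested. Within 250 kb of the gene body, 15 other placed genes were found, of which 6 had enough counts to be tested. None of the 6 passed an adjusted p of 0.05 by edgeR's quasi-likelihood test (0 also with limma-voom and the DESeq2 Wald test), against 0.45% of all tested genes, and 1 had an unadjusted p below 0.05, as did 8.39% of all tested genes. Their log2 fold changes lay between -0.23 and 0.34. LIG1, the gene of a DNA ligase and the nearest of the 6, lies 4628 bases beyond PLA2G4C. Its level was 75.3 ± 12.5 CPM (SD, n = 4) without and 64.4 ± 14.3 CPM (SD, n = 3) with BV6 (log2 fold change -0.23, SE 0.179 and Benjamini-Hochberg adjusted p = 0.773 by edgeR). No placed gene on the other side of PLA2G4C was tested, and CABP5, 3764 bases away, had 0 to 3 counts a library. The 1 gene with a low unadjusted p was EMP3 (log2 fold change 0.34 and Benjamini-Hochberg adjusted p = 0.51 by edgeR).

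The cyclooxygenase genes were both low, with PTGS1 clearly detected and PTGS2 at the floor. PTGS1 (chromosome 9, 122370530 to 122395703, plus strand) had 398, 161, 284 and 319 counts in untreated replicates 1 to 4 and 77, 165 and 214 counts in BV6 replicates 2 to 4. In CPM these were 5.17, 2.87, 4.71 and 5.16 against 1.37, 2.69 and 3.97, and the groups overlapped because untreated replicate 2 lay below BV6 replicate 4. Replicate 2 had the lowest level in both groups. Within each experiment the level with BV6 was lower, by 52.2%, 42.9% and 22.9% in replicates 2, 3 and 4, as it was in all 3 experiments for 17.8% of the tested genes. The log2 fold change was -0.74 (SE 0.346), and -0.73 (SE 0.188) with the replicate block. PTGS1 was not a DEG in either fit, and with a difference under 2-fold in both it could not be one whatever its p.

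PTGS2 (chromosome 1, 186671791 to 186680922, minus strand) had 0, 0, 4 and 0 counts in untreated replicates 1 to 4 and 2, 3 and 3 counts in BV6 replicates 2 to 4. Only untreated replicate 3 was above the floor of 3 counts, so no fold change is given, and a difference was not detectable at this depth. PACERR, the non-coding RNA that starts beside PTGS2 on the opposite strand, had 0 counts in every library. PLA2G4A, which encodes cytosolic phospholipase A2 alpha, the calcium-dependent enzyme with a preference for arachidonic acid, lies 148027 bases from PTGS2 (chromosome 1, 186828949 to 186988981, plus strand). It had 5, 2, 2 and 2 counts in untreated and 1, 1 and 5 counts in BV6 libraries, and 5 of the 7 libraries were at or under the floor.

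The sequences before the start sites of PTGS2 and PTGS1 are shown because these isoenzymes differed in level and because NF-κB is known to act on PTGS2. They are the 250 bases upstream of the RefSeq start on GRCh38.p14, 5′ to 3′ on the strand of the gene, chr1:186680424-186680673 (minus strand) for PTGS2 and chr9:122375052-122375301 (plus strand) for the more downstream of the 2 PTGS1 starts. Capitals mark matches on either strand to 4 motifs, which may overlap. These are TATAAA, the core of the TATA box, then the motif of the GC box, spelled GGGCGG, then CCAAT, and last a loose form of the NF-κB site, in which GGG is followed by any 5 bases and then by CC.
PTGS2: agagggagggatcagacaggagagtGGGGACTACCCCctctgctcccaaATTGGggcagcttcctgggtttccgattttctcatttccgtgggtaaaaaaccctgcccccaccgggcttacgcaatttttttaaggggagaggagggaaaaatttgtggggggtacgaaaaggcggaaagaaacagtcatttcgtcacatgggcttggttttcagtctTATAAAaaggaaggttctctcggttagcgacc
PTGS1: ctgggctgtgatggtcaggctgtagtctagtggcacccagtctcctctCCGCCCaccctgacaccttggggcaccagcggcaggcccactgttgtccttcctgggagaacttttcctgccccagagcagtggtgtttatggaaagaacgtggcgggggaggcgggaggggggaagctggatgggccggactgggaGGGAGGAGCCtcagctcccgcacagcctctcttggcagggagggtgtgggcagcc
The PTGS2 window held TATAAA at -32 and overlapping matches to the loose NF-κB form from -225 (position -1 is the base before the start), and the printed PTGS1 window held no TATAAA and a match to that form at -55. The window of the other PTGS1 start (chr9:122370283-122370532, not printed) held TATAAA at -208, on the opposite strand, and matches to the loose NF-κB form from -58. In GENCODE release 44 a longer PTGS2 transcript starts further upstream, so the PTGS2 window lies inside the gene body as given above, and 73 of its bases overlap an exon of PACERR. Of the 9 genes, 7 had entries in the RefSeq table, with 10 windows in all, and PLA2G4C and PLA2G4C-AS1 had none. The loose NF-κB form was found in 8 of the 10 windows and in 54.4% of 35116 windows of the same length, GGGCGG in 7 of the 10 and in 42.6%, TATAAA in 2 of the 10 and in 10.7%, and CCAAT in 1 of the 10 and in 32.0%.

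Of the terminal synthases, those detected overlapped between the groups. PTGES2 (chromosome 9, 128120693 to 128128462, minus strand) had 50.7, 47.0, 31.7 and 32.9 CPM in untreated replicates 1 to 4 and 41.7, 17.2 and 40.9 CPM in BV6 replicates 2 to 4. BV6 replicate 3 was the lowest library, and within experiments the level was lower in replicates 2 and 3 and higher in replicate 4. The log2 fold change was -0.29 (SE 0.300), and without BV6 replicate 3 it was 0.03. PTGES3 (chromosome 12, 56663341 to 56688408, minus strand) had 294, 368, 303 and 323 CPM in untreated and 324, 316 and 298 CPM in BV6 libraries, a log2 fold change of -0.04 (SE 0.106). The groups overlapped, with untreated replicate 2 the highest library. The table also lists 5 PTGES3 pseudogenes, near-identical copies that can share reads with it, of which PTGES3P1 had 598 to 852 and PTGES3P3 65 to 113 counts a library. PTGES (chromosome 9, 129738331 to 129753042), the gene of the inducible microsomal prostaglandin E synthase, had 0, 0, 2 and 3 counts in untreated and 0, 2 and 6 counts in BV6 libraries. PTGDS (chromosome 9, 136975092 to 136981742), the gene of lipocalin-type prostaglandin D synthase, had 13, 6, 5 and 10 counts against 6, 13 and 5 counts. It was detected in every library but had too few counts to be tested, and the groups overlapped.

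**Figure D4:**
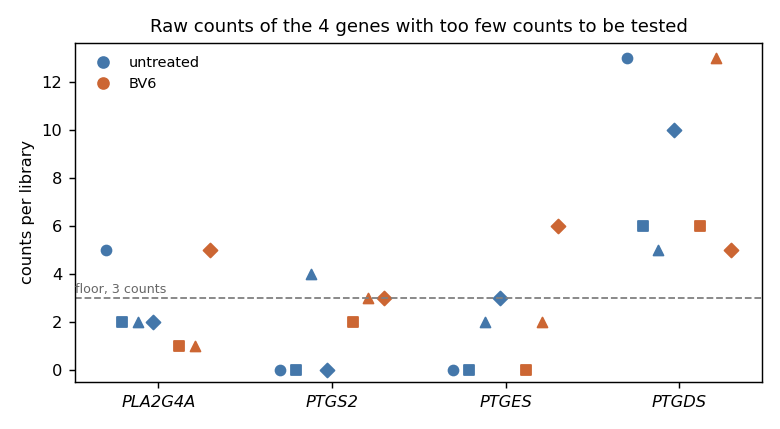
Raw counts per library of PLA2G4A, PTGS2, PTGES and PTGDS, with untreated libraries in blue, BV6 libraries in orange, symbols by replicate as circle, square, triangle and diamond for 1 to 4, and the floor of 3 counts as a dashed line. The counts stay between 0 and 13, and the groups overlap in all 4 genes.

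Genes of the wider pathway were taken from 5 lists that hold none of the 9 genes. Of 76 genes, 47 were tested, and none passed an adjusted p of 0.05 in either direction by edgeR's quasi-likelihood test, beside 0.45% of all tested genes. At an unadjusted p below 0.05 there were 3, 1 higher and 2 lower, beside 8.39% of all tested genes. With limma-voom and with the replicate block the count was also 0, and with the DESeq2 Wald test it was 1. The median log2 fold change of the 47 was -0.06. By list, 3 of 11 other phospholipases A2 were higher and 8 lower in BV6 samples, 0 of 7 other prostanoid synthases and catabolic enzymes were higher, 2 of 4 receptors and transporters were higher, 3 of 8 lipoxygenase and leukotriene genes were higher, and 8 of 17 genes of arachidonate synthesis, activation and reacylation were higher. Over all 23124 tested genes, 11020 were higher and 12104 lower. Among the signs in these lists no single gene passed the test.

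The gene that the DESeq2 Wald test called was ABCC4, which encodes an exporter of prostaglandins and other organic anions. It had 40.6, 50.8, 45.1 and 48.2 CPM in untreated replicates 1 to 4 and 72.6, 69.9 and 62.2 CPM in BV6 replicates 2 to 4. All BV6 libraries of ABCC4 lay above all untreated ones, and 8.83% of all tested genes had no overlap in either direction. Its log2 fold change was 0.56 (SE 0.115 and Benjamini-Hochberg adjusted p = 0.098 by edgeR), with an adjusted p of 0.0688 with the replicate block, 0.0074 with the DESeq2 Wald test, and 0.0601 to 0.307 over the remaining alternatives. ALOX5AP, whose product presents arachidonic acid to 5-lipoxygenase, had 1.44 ± 0.279 CPM (SD, n = 4) without and 0.761 ± 0.162 CPM (SD, n = 3) with BV6 (log2 fold change -0.92, SE 0.260 and Benjamini-Hochberg adjusted p = 0.275 by edgeR). LPCAT1, an acyltransferase that puts fatty acids back on lysophospholipids, had 15.2 ± 2.34 against 10.1 ± 2.33 CPM (log2 fold change -0.59, adjusted p = 0.382, by the same edgeR test). TBXAS1, the gene of thromboxane synthase, had 0.971 ± 0.182 against 0.687 ± 0.104 CPM (log2 fold change -0.50, adjusted p = 0.661, by the same edgeR test). The remaining genes with the smallest p of each list, PAFAH1B3 (log2 fold change -0.39), PLA2G15 (-0.25), PTGR3 (-0.15), PTGER2 (-0.55), ALOX12 (-0.25) and FAAH (0.49), had adjusted p between 0.653 and 0.849 (edgeR, Benjamini-Hochberg). The other group IV genes PLA2G4D, PLA2G4E and PLA2G4F had at most 14 counts in any library. PLA2G4B was well detected, at 16.7 ± 4.14 CPM in untreated and 14.0 ± 4.48 CPM in BV6 cells, though it can share reads with the readthrough gene JMJD7-PLA2G4B. Among the receptors, PTGER4, a receptor of prostaglandin E2, had 7.95 to 15.0 CPM in untreated and 7.66 to 17.3 CPM in BV6 libraries (log2 fold change -0.01, SE 0.297).

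**Figure D5:**
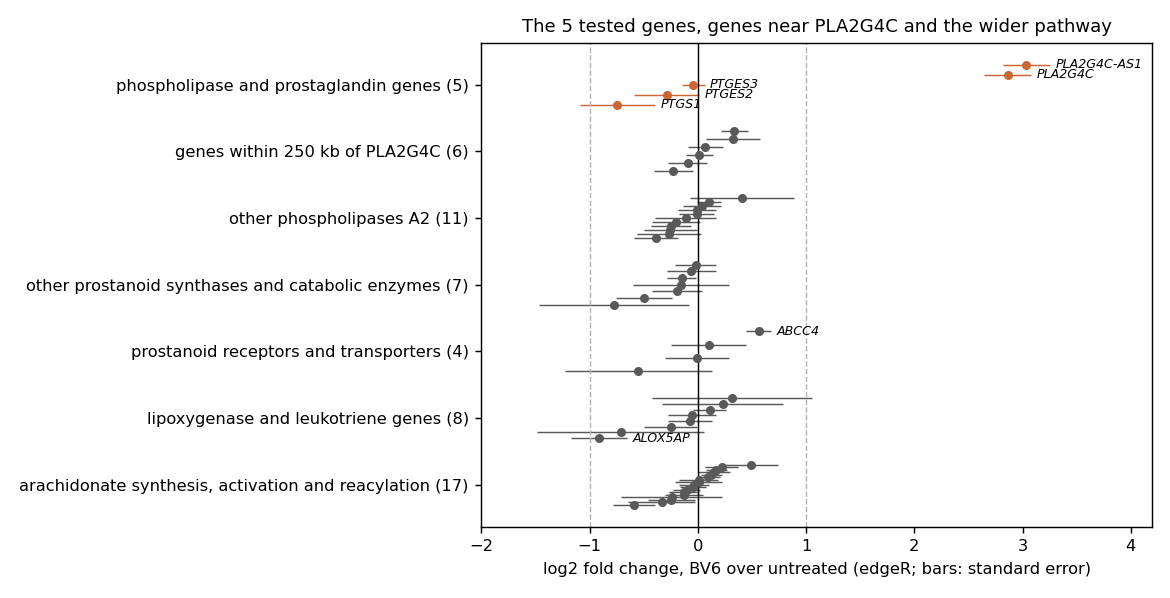
Log2 fold change of BV6 over untreated by edgeR with its standard error, 1 point a gene. Shown are the 5 tested phospholipase and prostaglandin genes (orange), the 6 placed and tested genes within 250 kb of PLA2G4C and the 5 lists of the wider pathway. Numbers of tested genes are in parentheses, and dashed lines lie at -1 and 1. PLA2G4C (2.86) and PLA2G4C-AS1 (3.04) lie past the lines, and no other point does.

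The genes whose pattern over the 7 libraries was most like that of PLA2G4C were found by the root mean square difference of centered log2 CPM. PLA2G4C-AS1 was the closest, at 0.25. Of genes outside the 9, RSAD2 (0.31), SSTR2 (0.38), ANKRD22 (0.39), WFDC5 (0.40) and TNFRSF9 (0.40) came next. WFDC5 (0.0123 CPM) and ANKRD22 (0.0455 CPM) were at about the floor in untreated cells and were tested only because of their BV6 libraries. RSAD2, with 0.118 CPM in untreated cells and 1.44 CPM with BV6, was also too low in untreated cells to be tested without its BV6 libraries. RSAD2 encodes the antiviral protein viperin, SSTR2 a somatostatin receptor and TNFRSF9 the receptor 4-1BB. In untreated cells TNFRSF9, with 3.07 ± 1.15 CPM (SD, n = 4), was nearest in level to PLA2G4C, and with BV6 SSTR2, with 18.8 ± 1.87 CPM (SD, n = 3), was nearest. For PTGES3 the most alike were HELLS (0.02), SNRPD3 (0.03), ATMIN (0.03), NUP88 (0.03) and AREL1 (0.03), with log2 fold changes no further from 0 than -0.08. These are likenesses of values in 7 libraries and were not tested. For PLA2G4C they mostly reflect the same BV6 difference on which it was chosen.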

How the data were processed

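The authors prepared mRNA libraries with a kit that keeps strand and sequenced both ends, mapped the reads to GRCh38 with STAR 2.6.1d (versions from the submitters' processing notes), and deposited raw counts per gene over the union of its Ensembl isoforms. Whether mates were counted singly, whether strand was used and how reads on several genes were treated is not given in the sources used here. Nothing in the labels says whether samples came from separate cultures. The paper's caption of its expression heat map speaks of biological replicates but does not say how they were grown. The p-values therefore measure only the spread between these samples. Samples of 1 group were compared by a chi-square test over genes, and all pairs differed beyond counting noise.

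The counts were filtered (filterByExpr, minimum count 10), TMM-normalized and tested with glmQLFit and glmQLFTest of edgeR 4.0.16 under R 4.3.3, with condition as the only term and Benjamini-Hochberg adjustment over all 23124 tested genes. Alternatives were DESeq2 1.42.0 (Wald test, named in the paper, which states no formula), limma-voom (limma 3.58.1), RLE factors, other filters, the replicate block, leaving out each library, limma on log2(CPM + 1), summing PLA2G4C with PLA2G4C-AS1, and another length. Over the 3 experiments with both conditions, deviations from the group means correlated at 0.197 to 0.515 within experiments and at -0.352 to 0.132 between them. With untreated replicate 1 included, the ranges overlapped, at 0.0847 to 0.462 within and -0.437 to 0.278 between. In this second check untreated replicates 2 (0.462) and 3 (0.438) correlated most with their own BV6 replicate. Untreated replicate 4 correlated at 0.0847 with BV6 replicate 4 and at 0.261 with BV6 replicate 3. The pairing therefore rests on the shared code in the titles, whose meaning is not stated, and these checks do not settle it.

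The edgeR fit was tested on simulated counts of 22660 genes, where it recovered 199 of 200 genes with a log2 fold change of 2 and made 5 false calls. Changed genes were drawn only from those with higher counts, each gene's variability was set to the trend over genes, and no difference between experiments was simulated. The figures may therefore not hold for genes with low counts or for these data. Symbols were matched to GENCODE release 44 for 36327 of 57189 genes. Upstream sequences are from RefSeq (GRCh38.p14).

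The 9 genes and all lists were chosen with earlier results of these data known. Named genes are the 9, the 2 genes with the smallest p of each pathway list, genes within 250 kb that passed or lay nearest, and the 5 most alike in log2 CPM (prior count 2) to PLA2G4C and to PTGES3. EMP3, PLA2G4B, PLA2G4D, PLA2G4E, PLA2G4F, PTGER4, CABP5, PACERR and the PTGES3 pseudogenes were named after their values were seen.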

Additional observations from a re-analysis of the deposited data

Results flagged for a closer look

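In 3 of the 9 genes, 1 untreated library lay far from the other 3, by the ratio of its gap to the whole range. For PLA2G4C this was untreated replicate 4 with 3.70 CPM, where replicates 1 to 3 had 2.06 to 2.22 CPM (ratio 0.903), while PLA2G4C-AS1 in the same library was within the range of the other untreated libraries. PLA2G4A had 5 counts in untreated replicate 1, the deepest library, and 2 counts in each of the others (ratio 0.899), and PTGS2 had 4 counts in untreated replicate 3 and 0 in the others (ratio 1), both at about the floor of 3 counts. Ratios above the 95% critical value of Dixon's test for 4 values were taken as far. For continuous values chance alone passes that limit in about 1 of 20 groups, and for counts as low as those of PLA2G4A and PTGS2 ties can give high ratios, so that share does not apply to them.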

How the results depend on the processing

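Over the 7 fits without a library and the 6 other edgeR, DESeq2 and limma-voom alternatives, the log2 fold change of PLA2G4C lay between 2.77 and 3.10. That of PLA2G4C-AS1 lay between 2.96 and 3.10. Both genes were chosen on this contrast, so these ranges are a description and no test. On the log2(CPM + 1) scale, which understates changes of low genes, PLA2G4C-AS1 had 1.31, and summed with PLA2G4C the log2 fold change was 2.88. PTGS1, PTGES2 and PTGES3 were DEGs in none of these fits. Of them only PTGS1, without BV6 replicate 4 (-1.13), passed the 2-fold limit, so elsewhere that limit alone fixed the outcome. PTGS1 lay between -1.13 and -0.42, and PTGES2 and PTGES3 each changed sign in 1 fit, without BV6 replicate 3 (0.03) and without untreated replicate 2 (0.02). The number of DEGs over all genes was 219 with the DESeq2 Wald test, 157 with no filter on low counts and 119 with the replicate block, against 74, and 37 to 72 when a library was left out. The DESeq2 and unfiltered fits took in 43421 genes, the main and block fits 23124, and the fits without a library 22590 to 23871. The number of DEGs fell most without untreated replicate 1 or untreated replicate 3 (37 each), without untreated replicate 4 (39) and without BV6 replicate 4 (47). The block changed no call among the 9 genes or the genes of the pathway and neighbor lists. The count of pathway genes with an adjusted p below 0.05 was 1 with the DESeq2 Wald test and 0 otherwise. The cause of these differences was not tested. Lengths by the longest transcript moved the level per kb of PLA2G4C, PLA2G4C-AS1, PTGES2, PTGES3 and PTGDS by more than the spread between libraries. At this depth PLA2G4A, PTGS2 and PTGES could not be compared.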
